A study of Mus musculus with 8 samples.

Results

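The transcripts described here are 45 mouse genes of the autophagy machinery and its cargo receptors, chosen by gene symbol for their known roles. All 45 were found, each on a single row, among the 14145 genes of the table. Levels were measured by RNA-seq in primary tubular epithelial cells (TECs, the cells that line the kidney tubule), grown in DMEM/F12 medium with serum and antibiotics and left untreated. The control group (Aldh2Ctrl in the design text, WT in the titles) and the knockout group (Aldh2TEC-KO in the design text, KO in the titles) held 4 libraries each. Aldh2 encodes the mitochondrial enzyme that oxidises acetaldehyde and other reactive aldehydes. The genotype field of the 4 knockout samples runs through ALDH2, ALDH3, ALDH4 and ALDH5, so groups were taken from the titles. The labels do not give the promoter that drove the deletion, the age or strain of the mice, the alleles that the controls carried, or whether the libraries came from different animals. The p-values therefore measure only how these libraries vary, and that variation may be in part or, among the controls, wholly technical. By the sex transcripts described below the knockouts include both sexes, so they did not all come from the same animal.

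Autophagy is the route by which a cell encloses part of its own cytoplasm in a double membrane, the autophagosome, and delivers it to the lysosome. The ULK kinase complex starts the process, a class III PI3-kinase complex marks the membrane with a phospholipid, Atg9 and Atg2 supply lipid, and ubiquitin-like conjugation reactions attach proteins of the Atg8 family (the LC3 and GABARAP proteins) to it. Receptors such as p62 bind both cargo and Atg8 proteins, and the HOPS complex tethers the finished vesicle to the lysosome. In the renal tubule the pathway is known for clearing damaged mitochondria after injury. Transcript levels do not measure how fast autophagosomes form or are degraded.

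Values are FPKM, which divide the reads of a gene by its length and by the depth of the library, and the depths recovered from them were 17050000 to 18760000 reads or fragments per library. Aldh2 was at 23.7 to 31.1 FPKM in the controls and at 0.879 to 1.64 FPKM in the knockouts. Judged by Xist and 4 Y-linked genes, knockout 1 and 2 were female and the 6 other libraries male, so no female control exists. Knockout 3 and 4 stood apart in mt-Co1, a mitochondrial transcript, at 1708.6 and 1980.3 FPKM, with 4597.2 to 9865.1 FPKM elsewhere. All 6 markers of cultured tubular epithelium were measured, led by Krt8 and Krt18, with a summed level of 1257.9 to 2928.2 FPKM in controls and 708.2 to 6115.9 FPKM in knockouts. On the log2(FPKM + 1) scale 4 of the 6 had a higher mean in knockouts and 2, Epcam and Cdh1, a lower one. Epcam averaged 132.1 FPKM in controls and 61.4 FPKM in knockouts, and Cdh1 162.9 and 78.8 FPKM. For each of these, 3 knockouts lay below all controls. Of 9 proximal tubule markers 6 were measured (65.3 to 171.3 and 36.8 to 160.6 FPKM, led by Cdh6 and Pax8), and Cubn, Slc34a1 and Slc5a2 were not analysed here. All 12 macrophage and leukocyte markers had a higher log2(FPKM + 1) mean in knockouts, with none at 0 in any library. Their summed levels were 49.9 to 1093.8 FPKM in controls and 230.7 to 1803.1 FPKM in knockouts. Lyz2 had the highest mean of the 12 in both groups, at 9.38 to 674.09 FPKM in controls and 82.57 to 990.32 FPKM in knockouts. Of 7 fibroblast markers 4 were measured, led by Col1a1 and Col1a2 (34.5 to 447.9 and 19.6 to 37.1 FPKM), and of 6 endothelial markers only Eng and Esam (4.7 to 6.4 and 1.0 to 3.0 FPKM). In bulk cultures, fewer cells of a type and less RNA per cell cannot be told apart.

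No autophagy gene passed the test between genotypes. With limma on log2(FPKM + 1) and Benjamini-Hochberg adjustment over all genes, 0 of the 45 members had an adjusted p below 0.05, beside 0.0778% of all genes (11 of 14145). An unadjusted p below 0.05 was found for 5 members (11.1%) and for 2714 of all genes (19.2%), and limma-voom on recovered reads also called 0 members. All counts of higher and lower means below were made on the log2(FPKM + 1) scale. On it the knockout mean was higher for 26 members (57.8%, beside 44.5% of all genes) and lower for 19. The median log2 difference was 0.06, beside -0.06 over all genes. Knockout and control values did not overlap for 2 members on the higher side (4.44% of members, 4.76% of all genes) and for 1 on the lower side (2.22%, 6.86% of all genes). Both shares lay below the background. Control means ran from 2.97 FPKM for Atg4d to 209 FPKM for Sqstm1, and the value with the fewest reads of any member rested on 91 recovered reads (Atg10).

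In the plot of all members by library, the controls stayed close together, and the knockouts scattered widely and often to opposite sides of the controls. Below, 4 values listed together are those of libraries 1 to 4 of a group, in that order. A detrended difference is one fitted after the trend of each library's values on transcript length and GC content was removed.

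**Figure D1:**
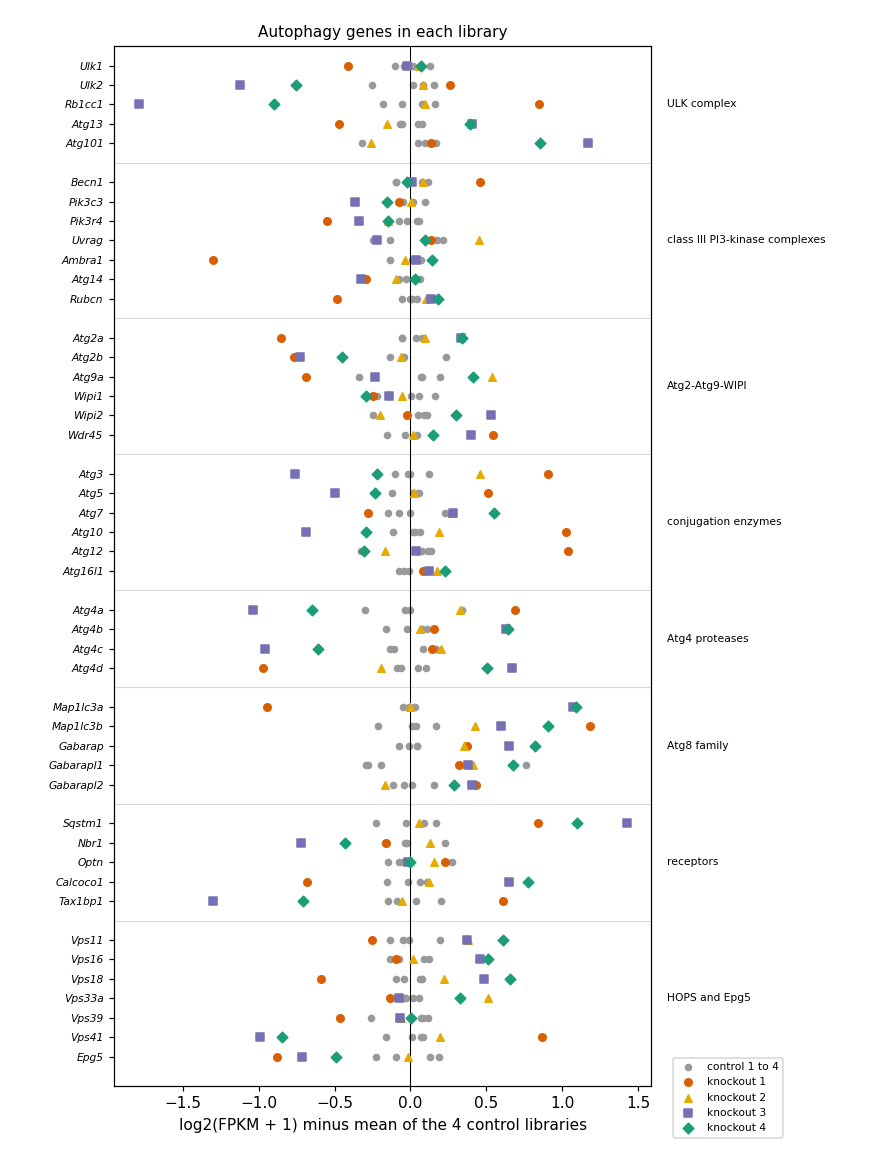
Difference of each library from the mean of the 4 controls, on the log2(FPKM + 1) scale (horizontal axis), for the 45 autophagy genes grouped by role (vertical axis); grey dots are controls and coloured symbols are knockout 1 to 4. Knockout 1 and knockout 3 often lie on opposite sides of the controls, as for Rb1cc1, Map1lc3a and Vps41, while for Map1lc3b and Gabarap all 4 knockouts lie to the right of the controls.

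The Atg8 family had the highest median of the 8 role groups, with a higher log2 mean in knockouts for all 5 members (median log2 difference 0.44) and none past the threshold. Map1lc3b encodes LC3B, the Atg8 protein used most widely as an autophagosome marker. It read 28.76, 25.67, 26.10 and 21.77 FPKM in controls versus 58.97, 34.51, 38.92 and 48.51 FPKM in knockouts. Every knockout lay above every control. Map1lc3b averaged 25.6 ± 2.88 and 45.2 ± 10.9 FPKM (SD, n = 4 each), a log2 difference of 0.78 (SE 0.20, 95% interval 0.33 to 1.22, limma adjusted p = 0.14). The difference of Map1lc3b was 0.80 without knockout 3 and 4 and 0.91 when detrended. Without knockout 2, the knockout nearest to the controls, Map1lc3b passed (limma adjusted p = 0.0344). That fit called 8.05% of all genes and 4.44% of members.

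Gabarap had the highest FPKM of the Atg8 genes in 7 of 8 libraries, and its protein belongs to the subfamily known to bind the ULK complex. It read 140.81, 135.81, 140.60 and 129.79 FPKM in controls versus 177.19, 174.65, 214.88 and 242.31 FPKM in knockouts. The groups did not overlap, and knockout 1 and 2 were nearest to the controls. Gabarap averaged 137 ± 5.18 and 202 ± 32.4 FPKM (SD, n = 4 each), a log2 difference of 0.55 (SE 0.18, 95% interval 0.14 to 0.95, limma adjusted p = 0.184). The difference of Gabarap was 0.36 without knockout 3 and 4 and 0.34 when detrended.

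For the other Atg8 genes the groups overlapped. Gabarapl1, a GABARAP paralog known to be induced in starvation, was at 66.97, 63.30, 62.72 and 131.12 FPKM in controls versus 96.08, 102.49, 100.11 and 123.09 FPKM in knockouts. Thus 3 controls lay below all knockouts, and control 4 lay above them all. Gabarapl2, which encodes GATE-16, was at 32.25 to 39.14 FPKM versus 47.65, 31.04, 46.66 and 43.00 FPKM, with knockout 2 the lowest of all 8 libraries. Map1lc3a (LC3A) was at 54.77, 56.13, 56.45 and 53.32 FPKM in controls versus 28.24, 54.95, 116.97 and 118.48 FPKM in knockouts. Knockout 1 lay below the controls, knockout 2 among them and knockout 3 and 4 above them. The log2 difference of Map1lc3a was 0.30 with a 95% interval from -0.61 to 1.22.

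**Figure D2:**
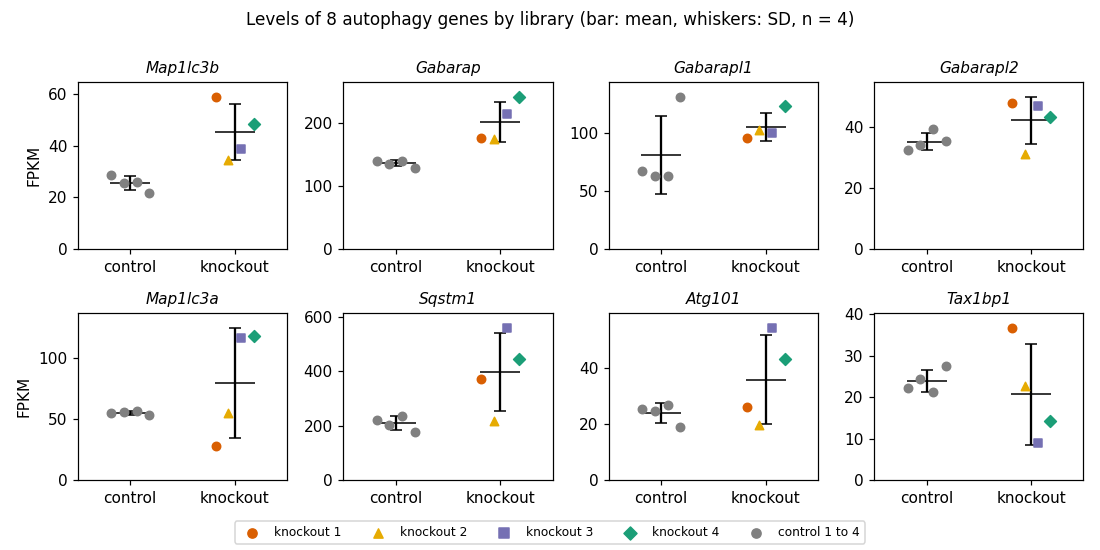
FPKM (vertical axes, from 0) of 8 autophagy genes in control and knockout libraries; points are libraries, horizontal bars group means and whiskers SD (n = 4). All knockouts exceed all controls for Map1lc3b and Gabarap, whereas Map1lc3a and Tax1bp1 have knockouts on both sides of the controls.

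Summed over the family, Atg8 transcripts came to 314.8 to 371.2 FPKM in controls and 397.6 to 575.4 FPKM in knockouts. FPKM are per length, but Map1lc3b was divided by 7517 bases of exon and the other members by 1181 to 2325 bases, and some of these genes share exons or near-identical copies with others, so levels of different members compare only roughly. Gabarap held 41.5% to 43.9% of the sum in every library except control 4, where Gabarapl1 held 35.3% and Gabarap 35.0%. The share of Map1lc3a was 14.4% to 17.8% in controls and 6.9%, 13.8%, 22.6% and 20.6% in knockouts. For Map1lc3b the share was 5.9% to 8.9% in controls and 14.4%, 8.7%, 7.5% and 8.4% in knockouts. Shares of both LC3 genes spread more widely among the knockouts (SD 7.13 and 3.14 percentage points) than among the controls (1.53 and 1.29 percentage points), and this contrast was not tested.

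**Figure D3:**
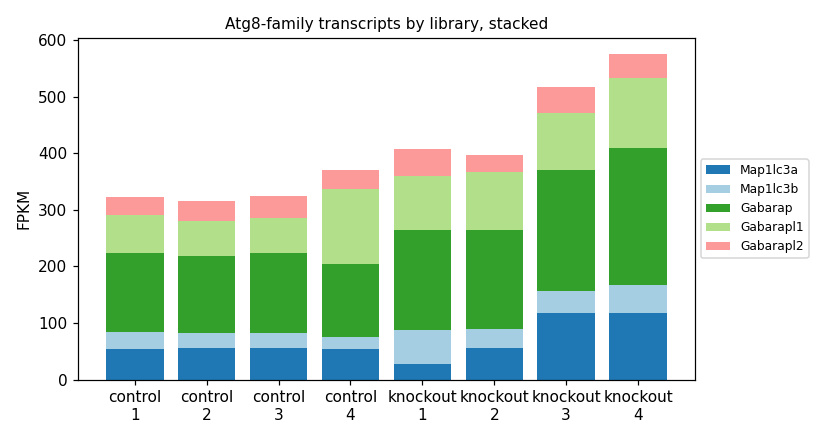
Summed FPKM of the 5 Atg8-family genes in each library (stacked bars, vertical axis from 0). The knockout totals of 397.6 to 575.4 FPKM all exceed the control totals of 314.8 to 371.2 FPKM, and the Map1lc3a part is smallest in knockout 1.

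Among the receptors 3 of 5 had a higher log2 mean in knockouts (median log2 difference 0.09), and none passed. Sqstm1 encodes p62, a receptor for ubiquitinated cargo that is itself degraded by autophagy, and is a known target gene of the antioxidant factor Nrf2. It read 221.25, 203.27, 233.97 and 177.12 FPKM in controls versus 372.27, 216.46, 559.14 and 445.25 FPKM in knockouts. Knockout 2 lay among the controls and the other 3 knockouts above them. The means of 209 ± 24.7 and 398 ± 144 FPKM (SD, n = 4 each) gave the largest log2 difference of the 45 genes, 0.85 (SE 0.29, 95% interval 0.20 to 1.51, limma adjusted p = 0.195). The difference of Sqstm1 was 0.45 without knockout 3 and 4 and 0.69 when detrended. Without knockout 2, Sqstm1 passed (limma adjusted p = 0.0295), in a fit that called 8.05% of all genes. Its share of the summed FPKM of the 45 genes was 17.5% to 22.7% in controls and 28.6%, 19.5%, 36.0% and 29.2% in knockouts.

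Nbr1, a receptor of similar architecture to p62, was at 29.99, 29.66, 26.96 and 35.89 FPKM in controls versus 27.09, 33.34, 18.11 and 22.38 FPKM in knockouts (log2 difference -0.30, SE 0.20, limma adjusted p = 0.425, and -0.02 both without knockout 3 and 4 and when detrended). Tax1bp1, which binds ubiquitinated aggregates, was at 21.32 to 27.42 FPKM versus 36.73, 22.76, 9.03 and 14.14 FPKM. Calcoco1, a receptor for selective turnover of endoplasmic reticulum and Golgi, was at 25.77 to 31.14 FPKM versus 17.61, 31.48, 45.80 and 50.06 FPKM. Knockout 1 was the highest of all libraries for Tax1bp1 and the lowest for Calcoco1, and knockout 3 and 4 were low for the former and high for the latter. Optn (optineurin, a mitophagy receptor) stayed within 5.28 to 7.41 FPKM in all 8 libraries, with a 95% interval of its log2 difference from -0.28 to 0.46.

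The summed macrophage markers are set beside these values. They came to 1093.8, 94.3, 110.9 and 49.9 FPKM in controls and 612.3, 1803.1, 230.7 and 1145.9 FPKM in knockouts. Among the knockouts the sum was highest in knockout 2, followed by knockout 4, 1 and 3. The part of these cells in the differences was not tested.

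The promoters of Sqstm1 and Map1lc3b are shown because these genes had the largest differences of the 45. The 150 bases before each annotated start hold 67.3% and 76.7% GC. They are from RefSeq (GRCm38.p6), on the strand of the gene and read 5′ to 3′, at chr11:50210821-50210970 (minus strand) and chr8:121590288-121590437 (plus strand). Both RefSeq starts lie inside the genes as annotated in GENCODE M21, which begin at chr11:50210827 and chr8:121590361. Part of each stretch is therefore inside the annotated gene. Capitals mark GGGCGG on either strand, the GC box bound by Sp1, a motif chosen after the sequences were seen. It was matched 3 times and 1 time in these stretches. Of the 9936 genes of the table with a longer promoter window (250 bases before to 50 after the start), 69.0% hold it in any window.
Sqstm1: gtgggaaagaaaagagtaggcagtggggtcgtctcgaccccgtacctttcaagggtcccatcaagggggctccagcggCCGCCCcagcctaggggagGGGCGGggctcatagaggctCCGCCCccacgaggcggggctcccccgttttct
Map1lc3b: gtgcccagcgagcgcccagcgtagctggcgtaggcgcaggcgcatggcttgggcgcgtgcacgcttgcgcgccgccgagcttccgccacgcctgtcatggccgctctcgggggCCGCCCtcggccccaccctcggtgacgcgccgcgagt

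In the ULK complex 2 of 5 genes had a higher log2 mean in knockouts (median log2 difference -0.08). Atg101, which stabilises the complex, was at 25.24, 24.46, 26.62 and 18.71 FPKM in controls versus 26.02, 19.49, 54.15 and 43.26 FPKM in knockouts (log2 difference 0.47, SE 0.30, limma adjusted p = 0.392). Knockout 3 and 4 lay far above the controls and knockout 1 and 2 among them, and the difference of Atg101 was -0.06 without knockout 3 and 4 and 0.13 when detrended. The kinase gene Ulk2 was at 16.88, 16.06, 15.25 and 12.49 FPKM in controls versus 18.29, 16.01, 6.39 and 8.56 FPKM in knockouts (log2 difference -0.38, SE 0.30, limma adjusted p = 0.483). Without knockout 3 and 4, which lay below all controls, the difference of Ulk2 was 0.17, and when detrended it was -0.15. Rb1cc1, the scaffold FIP200, spread to both sides of the controls, at 8.22 to 10.72 FPKM versus 17.84, 10.17, 2.03 and 4.62 FPKM. For the kinase gene Ulk1 and the adaptor Atg13 the log2 differences were -0.08 and 0.04, with 95% intervals of -0.44 to 0.29 and -0.44 to 0.53.

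Among the 7 genes of the class III PI3-kinase complexes 2 had a higher log2 mean in knockouts, and the log2 differences lay between -0.30 and 0.13. Pik3r4, the regulatory subunit Vps15, was the only member of the 45 with all knockouts below all controls, at 7.74, 8.47, 8.07 and 8.55 FPKM versus 5.28, 7.31, 6.29 and 7.30 FPKM. The log2 difference of Pik3r4 was -0.30 (SE 0.16, limma adjusted p = 0.326) and -0.02 when detrended. Atg14, which directs the kinase to autophagosome formation, was at 6.67, 7.44, 7.34 and 6.93 FPKM versus 5.59, 6.56, 5.44 and 7.25 FPKM (log2 difference -0.17, SE 0.16, limma adjusted p = 0.54, and -0.11 when detrended). Becn1 (Beclin 1), the core scaffold, was at 9.95, 9.92, 11.29 and 11.66 FPKM versus 15.05, 11.34, 10.75 and 10.48 FPKM (log2 difference 0.13, SE 0.17, limma adjusted p = 0.663, and 0.27 without knockout 3 and 4 and 0.34 when detrended), and only knockout 1 lay outside the controls. Ambra1, a regulator of Beclin 1, stood out in the same library in the other direction, at 4.05 FPKM in knockout 1 and 10.34 to 12.71 FPKM in the 7 other libraries. Pik3c3, the catalytic subunit, Uvrag, which acts in late steps, and Rubcn, an inhibitor, had log2 differences of -0.15, 0.11 and -0.02.

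Among the 6 genes of membrane supply 3 had a higher log2 mean in knockouts. Atg2b, a lipid-transfer protein, was at 5.20, 5.23, 4.84 and 6.55 FPKM versus 2.78, 5.16, 2.88 and 3.71 FPKM. Knockout 1, 3 and 4 lay below all controls and knockout 2 among them (log2 difference of Atg2b -0.50, SE 0.20, limma adjusted p = 0.235, and -0.03 when detrended). Its paralog Atg2a was at 12.37 to 13.67 FPKM in controls versus 6.69, 13.83, 16.51 and 16.61 FPKM in knockouts. Both paralogs were thus low in knockout 1, while in knockout 3 and 4 Atg2b was low and Atg2a high. Wdr45, a phosphoinositide-binding WIPI protein, was at 3.97, 4.70, 5.09 and 4.39 FPKM versus 7.04, 4.58, 6.28 and 5.13 FPKM (log2 difference 0.28, SE 0.18, limma adjusted p = 0.395, and 0.09 when detrended). Wipi2, which recruits the conjugation machinery, was at 16.34, 15.65, 16.11 and 12.52 FPKM versus 14.79, 12.97, 22.21 and 18.78 FPKM (log2 difference 0.15, SE 0.20, limma adjusted p = 0.673, and -0.11 without knockout 3 and 4 and 0.42 when detrended). For Atg9a, the lipid scramblase, and Wipi1, another WIPI protein, the log2 differences were 0.01 and -0.18.

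Of the 6 conjugation genes 5 had a higher log2 mean in knockouts, with log2 differences between -0.05 and 0.21. Atg16l1, which places the conjugation complex on the membrane, was at 4.33, 4.45, 4.21 and 4.95 FPKM versus 4.79, 5.19, 4.97 and 5.41 FPKM (log2 difference 0.15, SE 0.15, limma adjusted p = 0.571, and 0.49 when detrended). Atg7, the E1-like enzyme, was at 6.77, 7.16, 7.58 and 9.05 FPKM versus 6.07, 9.38, 9.46 and 11.59 FPKM (log2 difference 0.21, SE 0.20, limma adjusted p = 0.577, and -0.01 without knockout 3 and 4 and 0.32 when detrended). The ubiquitin-like Atg12 was at 36.85, 35.33, 36.45 and 26.61 FPKM versus 69.96, 29.76, 34.38 and 26.92 FPKM (log2 difference 0.15, SE 0.29, limma adjusted p = 0.778, and 0.44 without knockout 3 and 4 and 0.57 when detrended). Knockout 1 alone lay above the controls, and without it the difference of Atg12 was -0.15. The E2-like enzyme genes were also highest in knockout 1, Atg3 at 10.91 to 12.91 FPKM versus 22.95, 16.57, 6.56 and 9.97 FPKM and Atg10 at 4.67 to 5.43 FPKM versus 11.51, 5.99, 2.82 and 4.01 FPKM. Atg5, the conjugation partner of Atg12, was at 16.35 to 18.56 FPKM versus 25.84, 18.18, 12.35 and 15.04 FPKM. Unlike Atg12, these 3 genes were below all controls in both knockout 3 and knockout 4.

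The 4 Atg4 proteases, which process Atg8 proteins, are described in pairs, a grouping made after the values were seen. Atg4b, the main LC3 protease, was at 8.16, 7.58, 8.39 and 6.79 FPKM versus 8.68, 8.10, 12.44 and 12.60 FPKM (log2 difference 0.37, SE 0.19, limma adjusted p = 0.305, and 0.11 without knockout 3 and 4 and 0.60 when detrended). Atg4d was at 2.72 to 3.26 FPKM versus 1.02, 2.46, 5.31 and 4.63 FPKM. Both were highest in knockout 3 and 4. Atg4c was at 5.60, 6.67, 5.73 and 7.14 FPKM versus 7.02, 7.36, 2.74 and 3.75 FPKM (log2 difference -0.31, SE 0.27, limma adjusted p = 0.534, and 0.17 without knockout 3 and 4 and -0.16 when detrended). Atg4a was at 5.48 to 9.10 FPKM versus 11.86, 9.01, 2.89 and 4.10 FPKM. Both were lowest in knockout 3 and 4.

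Of the HOPS subunits and Epg5, which act at fusion with the lysosome, 4 of 7 had a higher log2 mean in knockouts. Epg5, a tether that gives fusion its specificity, was at 7.04, 5.89, 5.27 and 7.38 FPKM versus 2.99, 6.25, 3.48 and 4.23 FPKM (log2 difference -0.53, SE 0.22, limma adjusted p = 0.24, and -0.21 when detrended). Knockout 2 again lay among the controls and the other 3 knockouts below them. Vps18, a core subunit, was at 15.73, 14.57, 15.87 and 13.99 FPKM versus 9.63, 17.63, 21.39 and 24.25 FPKM (log2 difference 0.19, SE 0.26, limma adjusted p = 0.681, and -0.19 without knockout 3 and 4 and 0.11 when detrended). Vps11, another core subunit, was at 12.91, 12.55, 11.75 and 14.99 FPKM versus 10.77, 17.24, 17.15 and 20.40 FPKM (log2 difference 0.28, SE 0.20, limma adjusted p = 0.449, and 0.07 without knockout 3 and 4). Vps41, a subunit specific to HOPS, was at 14.37 to 17.15 FPKM versus 30.23, 18.63, 7.66 and 8.56 FPKM, high in knockout 1 and low in knockout 3 and 4. The log2 differences of Vps16, Vps33a and Vps39 were 0.22, 0.16 and -0.15. In each of knockout 1, 3 and 4, some HOPS subunits lay above and others below all controls.

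Members outside the control range were counted in each knockout library by itself, as a description, since all 4 are set against the same controls. Knockout 1 had 16 of 45 members above all controls and 20 below, knockout 2 had 16 and 5, knockout 3 had 19 and 16, and knockout 4 had 22 and 15. The shares of members above were 35.6%, 35.6%, 42.2% and 48.9%, beside 31.3%, 29.6%, 31.0% and 32.1% of all genes. Below the controls were 44.4%, 11.1%, 35.6% and 33.3% of members, beside 38.5%, 21.1%, 45.9% and 40.3% of all genes. Knockout 3 and 4 were both above the controls for 19 members and both below for 14. Knockout 1 lay below the controls for 9 of those 19 (Atg13, Rubcn, Atg2a, Atg7, Atg4d, Map1lc3a, Calcoco1, Vps11 and Vps18) and above them for 8 of those 14 (Ulk2, Rb1cc1, Atg3, Atg5, Atg10, Atg4a, Tax1bp1 and Vps41). Knockout 1, 3 and 4 were together above the controls for 6 members (Wdr45, Atg4b, Map1lc3b, Gabarap, Gabarapl2 and Sqstm1) and together below for 4 (Pik3c3, Pik3r4, Atg2b and Epg5).

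The members for which knockout 1 went against knockout 3 and 4 differed in base composition. The 9 genes high in knockout 3 and 4 and low in knockout 1 had a transcript GC content of 52.4% to 61.1% (median 55.2%). The 8 genes with the opposite pattern had 38.8% to 47.5% (median 42.9%), beside a median of 51.0% over the 45 members and 50.2% over all genes. Across the 45 members, Spearman's rho between GC content and the difference of a library from the controls was -0.58 in knockout 1, -0.06 in knockout 2, 0.75 in knockout 3 and 0.78 in knockout 4. Across 14129 genes it was -0.27, 0.06, 0.64 and 0.61 in the same order. Each control, set against the other 3, gave -0.33 to 0.30 across the members and -0.24 to 0.32 across all genes. With exon length, rho lay between -0.28 and -0.16 across the members in the 4 knockouts. These correlations run across genes within 1 library, which share its preparation and depth, and genes are not independent replicates. In the detrended fit 30 of 45 members were higher, beside 7140 of 14129 genes. The median over the members was 0.11 (0.00 over all genes) and 0 members were called. Whether base composition brought about the differences between libraries was not tested.

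**Figure D4:**
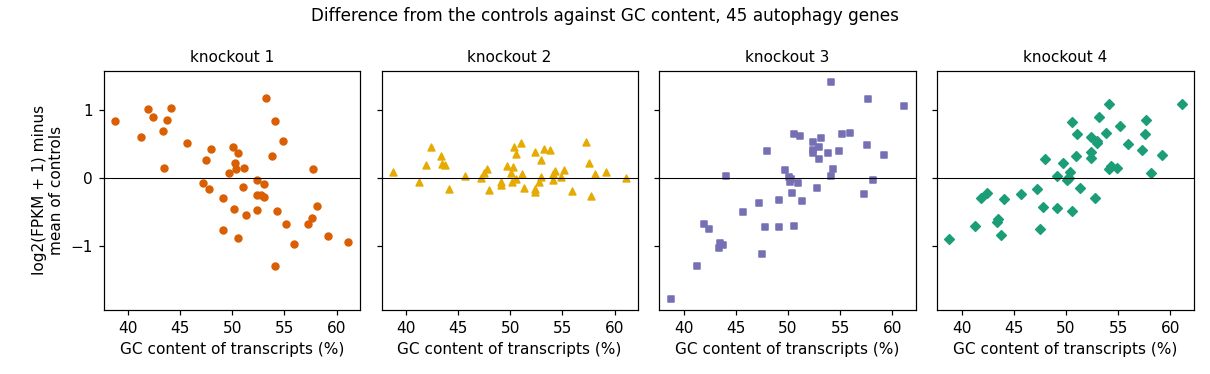
Difference from the control mean on the log2(FPKM + 1) scale (vertical axis) against the GC content of each gene's transcripts in percent (horizontal axis), for the 45 autophagy genes, 1 panel per knockout library. The points slope down in knockout 1 (rho -0.58), are nearly flat in knockout 2 (-0.06) and slope up in knockout 3 (0.75) and knockout 4 (0.78).

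With the male libraries alone, 27 of the 45 members passed at a limma adjusted p below 0.05. This fit sets 4 controls against knockout 3 and 4 only, so male sex and the other features of these libraries cannot be told apart. Called higher were 15 members (33.3%, beside 17.6% of all genes) and called lower were 12 (26.7%, beside 26.7% of all genes). The share on the lower side was that of the background. On the log2 scale and by limma in these 6 libraries, Sqstm1 rose by 1.26 (adjusted p = 0.00367), Map1lc3a by 1.08 (adjusted p = 0.00324), Atg101 by 1.01 (adjusted p = 0.0051), Map1lc3b by 0.75 (adjusted p = 0.00764) and Gabarap by 0.74 (adjusted p = 0.00439). Rb1cc1 fell by 1.34 (adjusted p = 0.00688), Tax1bp1 fell by 1.01 (adjusted p = 0.00691), Ulk2 fell by 0.94 (adjusted p = 0.00557) and Vps41 fell by 0.92 (adjusted p = 0.00332) in the same limma fit. With sex as a covariate over all 8 libraries the differences are the same, since no control is female, and 15 members passed (33.3%, beside 34.2% of all genes). None of the 7 PI3-kinase genes was called in either fit. Without knockout 3 and 4, 0 members passed, beside 0.099% of all genes. In that fit 23 of 45 members were higher, beside 7158 of 14145 genes, and the median over the members was 0.07. Without knockout 2, Map1lc3b and Sqstm1 were the members that passed (2 of 45, beside 8.05% of all genes).

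None of the 45 genes had an adjusted p below 0.05 in the authors' deposited table, beside 0.375% of all its genes. Sqstm1 is marked as up in the authors' deposited table, with a log2 fold change of 1.07, a p of 0.0208 and an adjusted p of 0.659, and no other member carries a mark, beside 5.71% of all genes. Map1lc3b has a log2 fold change of 0.93 and an adjusted p of 0.659 in the authors' deposited table, without a mark.

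Many autophagy and lysosome genes are known targets of Tfeb and Tfe3, which bind the CLEAR element, an extended E-box. RefSeq promoter windows (GRCm38.p6, 250 bases before to 50 after the start) were matched by symbol for 36 of the 45 members and for 9936 genes of the table. A gene with several annotated starts was counted if any of its windows held the motif. The E-box CACGTG stood in 7 of 36 (19.4%, beside 11.7% of genes). Its longer form GTCACGTG, which contains CACGTG and was searched on both strands like every motif here, stood in 5 (13.9%, beside 4.8%). TGACNNNGC, the core of the antioxidant response element, stood in 5 of 36 (13.9%, beside 17.2%), among them Map1lc3b just after its start and Vps16 in overlap with its E-box. A match is a run of letters and not evidence of binding. The longer E-boxes of Atg7, Atg14 and Vps33a and the Map1lc3b match lie by a RefSeq start that is inside the gene as annotated in GENCODE M21. The stretches of 30 bases around a match in each of the 5 genes with the longer E-box, and around the Map1lc3b match, are printed so that they can be compared, on the strand of the gene with the match in capitals.
Atg3, chr16:45158722-45158751, plus strand: ggcctccttttGTCACGTGtcctgggagag
Atg7, chr6:114670951-114670980, plus strand: ccatattggtgGTCACGTGtgcagtaagtg
Atg14, chr14:47568417-47568446, minus strand: aaacaaaatccCACGTGACtggccctgagc
Vps16, chr2:130424289-130424318, plus strand: aaggcggcctcGTCACGTGaccccgaaggg
Vps33a, chr5:123573009-123573038, minus strand: gaacgtcccgtCACGTGACgcaggcggcgt
Map1lc3b, chr8:121590431-121590460, plus strand: cgcgagtcaccTGACTCGGCtgcggactga

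Among genes with the longer E-box, the log2 differences were 0.09 (SE 0.32) for Atg3 and 0.21 (SE 0.2) for Atg7. They were -0.17 (SE 0.16) for Atg14, 0.22 (SE 0.19) for Vps16 and 0.16 (SE 0.18) for Vps33a, none past the threshold. With errors of this size, the signs do not tell whether these genes shared a direction between genotypes, which was not tested. The transcripts of the factors themselves overlapped between groups. Tfeb was at 2.46, 1.97, 1.98 and 4.52 FPKM versus 1.77, 4.05, 2.83 and 5.30 FPKM (log2 difference 0.25, SE 0.30, limma adjusted p = 0.64, and 0.05 without knockout 3 and 4). Tfe3 was at 7.61, 6.92, 7.35 and 6.89 FPKM versus 4.45, 8.66, 9.26 and 10.61 FPKM (log2 difference 0.12, SE 0.24, limma adjusted p = 0.786, and -0.17 without knockout 3 and 4 and 0.29 when detrended).

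Regulators and partners outside the 45 came from a further list of 61 genes, of which 58 were measured (Retreg1 by its identifier). None passed with limma (0 of 58), nor with limma-voom on recovered reads, and an unadjusted p below 0.05 was found for 10 (17.2%, beside 19.2% of all genes). Of the 58, 25 were higher (43.1%, beside 44.5% of all genes) and 33 lower, and the median of the log2 differences was -0.08. The groups did not overlap for 2 on the higher side (3.45%, beside 4.76% of all genes). On the lower side this held for 2 (3.45%, beside 6.86%). Both shares lay below the background. The group of 18 genes of mTORC1 and nutrient sensing had 9 higher and 9 lower (median 0.03). Within it, all 5 Lamtor genes had a higher log2 mean in the knockouts (median 0.55), a subset that was not a planned group. Their products form the Ragulator complex, which anchors the nutrient-sensing kinase mTORC1 to the lysosome. Lamtor4 was at 14.45, 11.17, 11.89 and 13.33 FPKM versus 25.78, 23.91, 25.67 and 30.21 FPKM (log2 difference 1.00, SE 0.15, limma adjusted p = 0.0636, and 0.66 when detrended). Every knockout lay above every control for Lamtor4. Lamtor2 was at 27.48, 28.27, 30.61 and 22.77 FPKM versus 48.91, 29.69, 54.80 and 44.46 FPKM (log2 difference 0.66, SE 0.21, limma adjusted p = 0.177, and 0.33 when detrended). Without knockout 2, Lamtor4 (limma adjusted p = 0.0246), Lamtor2 (0.0313), Foxo1 (0.0357) and Wdfy3 (0.0213) passed. These were 4 of the 58 (6.9%), beside 8.05% of all genes. The kinase gene Mtor had a log2 difference of -0.39 (95% interval -0.88 to 0.10).

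Among the transcription factors, Foxo1, which induces autophagy genes in starvation, was at 8.16, 9.82, 8.41 and 9.63 FPKM versus 5.33, 6.08, 4.36 and 5.38 FPKM (log2 difference -0.67, SE 0.16, limma adjusted p = 0.124, and -0.33 when detrended). The groups did not overlap for Foxo1. Zkscan3, a repressor of autophagy genes, was at 9.08, 8.99, 7.21 and 9.52 FPKM versus 6.20, 9.06, 3.28 and 5.39 FPKM (log2 difference -0.53, SE 0.25, limma adjusted p = 0.281, and -0.18 without knockout 3 and 4 and -0.19 when detrended). AMPK is the energy-sensing kinase that activates ULK1. Its catalytic subunit gene Prkaa1 was at 22.56, 25.07, 20.42 and 24.85 FPKM versus 20.63, 19.68, 8.53 and 12.78 FPKM (log2 difference -0.63, SE 0.26, limma adjusted p = 0.239, and -0.19 without knockout 3 and 4 and -0.33 when detrended). Its regulatory subunit gene Prkag2 was at 5.00, 6.31, 7.22 and 4.66 FPKM versus 9.04, 6.83, 7.82 and 6.64 FPKM (log2 difference 0.34, SE 0.19, limma adjusted p = 0.326, and 0.57 when detrended). Knockout 3 and 4 lay far below the controls for Prkaa1, and knockout 2 just below them.

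Tex264, a receptor for turnover of endoplasmic reticulum, was at 23.88, 21.35, 24.28 and 17.00 FPKM versus 27.67, 28.63, 50.40 and 50.47 FPKM, without overlap (log2 difference 0.79, SE 0.25, limma adjusted p = 0.175, and 0.38 without knockout 3 and 4). Wdfy3 (Alfy), an adaptor for aggregates, was at 20.36, 23.06, 17.81 and 23.05 FPKM versus 6.89, 23.01, 7.37 and 9.88 FPKM (log2 difference -0.94, SE 0.33, limma adjusted p = 0.198, and -0.56 when detrended). For Wdfy3, as for Sqstm1, knockout 2 lay among the controls. Bcl2, which restrains Beclin 1, was at 6.05, 5.30, 4.64 and 4.81 FPKM versus 5.39, 3.02, 1.98 and 2.05 FPKM (log2 difference -0.66, SE 0.25, limma adjusted p = 0.222, and -0.29 without knockout 3 and 4 and -0.22 when detrended). Trp53inp2, a nuclear cofactor that binds Atg8 proteins, was at 37.92, 32.33, 33.71 and 37.82 FPKM versus 36.80, 48.79, 47.40 and 48.56 FPKM (log2 difference 0.34, SE 0.16, limma adjusted p = 0.275). The fusion SNARE gene Vamp8 was at 20.50, 19.65, 21.10 and 16.42 FPKM versus 22.02, 19.88, 52.90 and 39.81 FPKM (log2 difference 0.66, SE 0.30, limma adjusted p = 0.265, and 0.11 without knockout 3 and 4 and 0.42 when detrended). Its partner Stx17 was at 7.18, 7.79, 7.96 and 7.05 FPKM versus 8.19, 7.93, 4.58 and 4.32 FPKM (log2 difference -0.27, SE 0.22, limma adjusted p = 0.491, and 0.09 without knockout 3 and 4 and 0.01 when detrended). In knockout 3 and 4, Vamp8 lay above all controls and Stx17 below them.

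**Figure D5:**
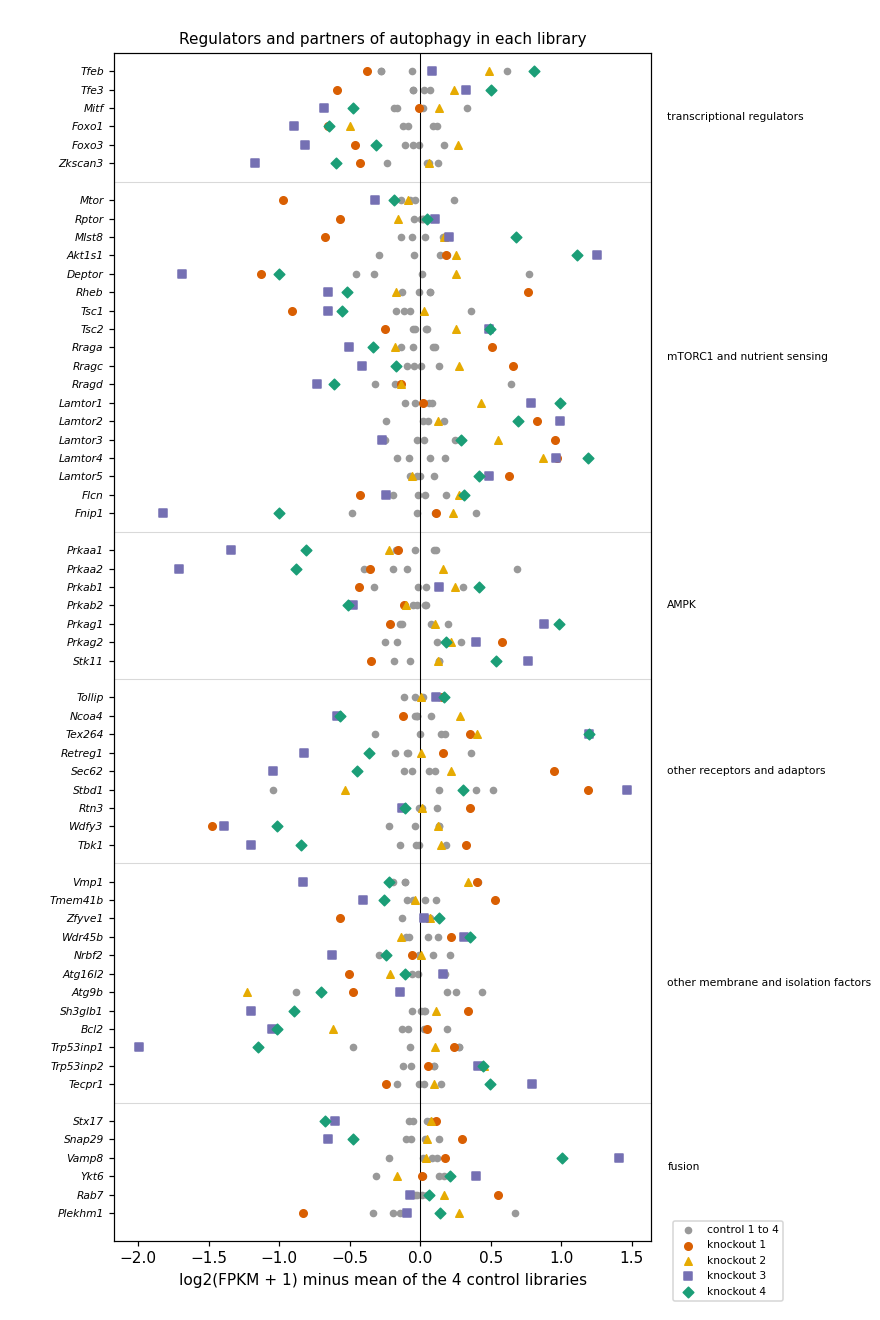
Difference of each library from the mean of the 4 controls on the log2(FPKM + 1) scale (horizontal axis) for 58 regulators and partners of autophagy grouped by role (vertical axis); grey dots are controls and coloured symbols are knockout 1 to 4. Lamtor4 and Tex264 lie to the right and Foxo1 and Prkab2 to the left of all controls in the 4 knockouts. Each side holds 3.45% of the 58 genes, beside 4.76% (right) and 6.86% (left) of all genes.

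Some levels are uncertain because annotated exons are shared. In GENCODE M21, 15 members share exon bases with another gene, and 7 share more than 10% of theirs. They are Becn1 (43.9%, opposite strand), Atg9a (31.8%, same strand), Gabarapl1 (28.3%, opposite strand), Wdr45 (24.7%, same strand), Atg4d (19.3%, opposite strand), Uvrag (17.6%, opposite strand) and Sqstm1 (17.3%, with Mrnip on the opposite strand). Whether the counting used strand is not stated, so reads of opposite genes may be mixed. Stretches of at least 200 bases at 95% identity or more were found in other annotated transcripts for Uvrag (15 genes), Map1lc3b (4), Gabarapl2 (3), Atg4a (2, among them Atg4a-ps over 2115 bases) and Rb1cc1 (1), and reads of these members may be shared with them.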

How the data were processed

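RNA-seq libraries of 4 control and 4 knockout cultures were compared. FastQC, STAR 2.4.1d, DESeq2 and the build GRCm38 are listed in the submitters' processing notes, without the counter, annotation or row filter. The authors deposited 1 FPKM value per gene and library (14145 genes; the values have decimals although they are called raw counts). The authors also deposited their own comparison of the groups as a log2 fold change per gene (infinite for 15 genes), a p-value and an adjusted p-value; DESeq2 is in the notes, but not which step it served. Sample columns left unused numbered 0. FPKM times exon length (GENCODE M21, GRCm38, 14134 genes) fell within 0.05 of whole reads, at the best-matching depth, for 94.9% to 95.5% of values between 1 and 200 reads, which gave the depths and the reads for limma-voom. FPKM by full exon length are lowered for genes with long, rarely used exons.

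The test was limma 3.58.1 (R 4.3.3, variance trend) on log2(FPKM + 1) over all genes, with a Benjamini-Hochberg threshold of 0.05. Differences on this scale understate changes of genes with low FPKM. The test was also run on simulated data with noise drawn independently for each gene. That noise lacks the GC trends and the sex imbalance of these libraries, so the run cannot show how the test behaves here. The members and lists were chosen with earlier results of these data known. Values by library and statistics are given for the 2 lowest p and the highest mean in each of 8 role groups, for the 2 lowest p in each of 6 partner groups, and for Sqstm1, Map1lc3b, Tfeb and Tfe3; other genes were chosen for mention after their values were seen. A planned comparison of protein sequences was not made. In all 19 alternatives were run. Python 3.11.15, pandas 2.3.3, numpy 2.4.6 and matplotlib 3.10.9 were used.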

Additional observations from a re-analysis of the deposited data

Results flagged for a closer look

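In 5 of the 90 groups of 4 libraries examined (45 members, 2 genotypes), a single library lay far from the other 3 by Dixon's criterion; chance alone flags about 1 group in 20. Control 4 accounted for 3 of them. Gabarapl1 was highest in control 4, at 131.12 FPKM against 62.7 to 67.0 FPKM in the other controls. Atg12 and Vps39 were lowest there, at 26.61 FPKM (other controls 35.33 to 36.85 FPKM) and 6.65 FPKM (8.61 to 8.96 FPKM). Knockout 1 accounted for the other 2, with the lowest knockout values of Rubcn, 7.43 FPKM against 11.7 to 12.4 FPKM, and of Vps39, 5.66 FPKM against 7.77 to 8.19 FPKM.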

How the results depend on the processing

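The number of members called was 0 in every alternative except male libraries only (27, 60.0%), the sex covariate (15, 33.3%) and the fit without knockout 2 (2, 4.44%). Leaving out 1 library at a time thus gave 0 to 2. Partner genes called went from 0 to 36 (62.1%) with male libraries only and 26 (44.8%) with the sex covariate. With single libraries left out they came to 0 to 4 (4 without knockout 2, 6.9%). Of all genes these fits called 44.4% (male libraries only), 34.2% (sex covariate) and 8.05% (without knockout 2). The median partner difference of -0.08 became 0.06 without knockout 3 and 4. Over all genes 11 were called, with 1 under the replicate block, 1 with the length and GC trend taken out, 3 with a pseudocount of 0.1, 7 with limma-voom on recovered reads, 6275 in male libraries only and 4838 with the sex covariate. Leaving out single libraries gave 1 to 1139 genes, with 1 without control 1, 2 or 3 or knockout 1 or 4, 3 without knockout 3, 8 without control 4 and 1139 without knockout 2. The cause was not tested. Fits that use sex rest on knockout 3 and 4.

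The median member difference of 0.06 moved by less than 0.07, the SD of library medians, in the 19 alternatives. Without knockout 3 and 4 the sign turned for Atg101 (-0.06), Ulk2 (0.17), Wipi2 (-0.11), Atg7 (-0.01), Atg4c (0.17), Vps18 (-0.19), Stx17 (0.09) and Tfe3 (-0.17). Male libraries alone and the sex covariate both gave -0.01 for Becn1 and -0.14 for Atg12. Single libraries left out gave -0.15 to 0.30 for Atg12 (lowest without knockout 1) and -0.01 to 0.36 for Tfe3 (lowest without knockout 4), and taking out the length and GC trend gave 0.01 for Stx17. Under the replicate block 0 members were called. Whether same-numbered libraries were paired is not known. Their deviations correlated at 0.041, -0.202, 0.56 and -0.056, and not every library correlated best with its own number. These values cannot decide it, since the knockouts also differ among themselves in sex and GC trend.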
